A study of Mus musculus with 18 samples.

Results

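The 10 circadian clock genes Arntl, Clock, Per1, Per2, Per3, Cry1, Cry2, Nr1d1, Nr1d2 and Dbp were followed through poly-A RNA, ribosome footprints and translational efficiency in mouse left ventricles. They were taken by gene symbol from tables of 10597 genes, and all 10 were found and passed the filter on low values in both assays. The 9 hearts were 5 from mORF4/NBDY knockout mice (KO hearts 6, 7, 8, 9 and 10) and 4 from wild-type mice (WT hearts 1, 2, 3 and 4). All mice were untreated C57BL/6 males aged 20 weeks, and each heart gave 1 RNA library and 1 footprint library. NBDY, a small protein encoded by Nbdy, binds decapping factors of the mRNA decay pathway. The sources used here do not give how the knockout allele was made, in which cells it acts or at what hour each heart was collected.

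The molecular clock is a feedback loop that runs in nearly every mammalian cell. BMAL1, the product of Arntl, pairs with CLOCK on E-box DNA and switches on the Per and Cry genes, whose proteins return to the nucleus and block their own activators. The same activators drive Nr1d1 and Nr1d2, which encode the REV-ERB repressors of Arntl, and Dbp, an output factor that binds D-box DNA. In mouse tissues, the heart among them, the transcripts of most of these genes rise and fall over the day, with Arntl high when Dbp is low.

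Values are normalized reads, the authors' read counts per gene divided by a size factor for each library. They are not divided by transcript length, so levels were compared between hearts and not between genes. Gene positions are RefSeq's on build GRCm38.p6. Summed over the listed genes and written in M, where 1 M is 1000000 reads, RNA depth was 15.8 to 20.2 M in KO hearts and 11.2 to 12.4 M in WT hearts. The KO RNA depths rest on the size of 1 read in each library, which could not be checked there. As far as these depths hold, RNA depth and genotype cannot be told apart. Footprint depth was 22.9 to 40.8 M in KO hearts and 6.67 to 36.7 M in WT hearts, of which WT heart 2 was the shallowest. Footprints of Nbdy, the targeted gene, were 10.9 to 19.0 normalized reads in KO hearts and 107 to 355 in WT hearts, which checks the labels. All 9 ventricular cardiomyocyte markers looked for were present, with a summed RNA level of 1.68 to 1.91 M normalized reads in KO hearts and 1.88 to 2.20 M in WT hearts. Markers of other cells also moved with genotype in RNA. Of 2 atrial markers, Myl4 was 3160 to 4742 in KO hearts and 8169 to 13618 in WT hearts, while Myl7 was 48.3 to 791 in KO hearts and 11.4 to 266 in WT hearts. The summed RNA was 23754 to 38477 in KO hearts and 44936 to 86151 in WT hearts for 2 skeletal muscle markers, and 5705 to 6547 in KO hearts and 6654 to 9003 in WT hearts for 3 smooth muscle markers. Tagln among the smooth muscle markers went the other way, at 396 to 444 in KO hearts and 260 to 346 in WT hearts. For 5 endothelial markers the summed RNA was 12088 to 14035 in KO hearts and 13925 to 15827 in WT hearts, although Tie1 among them was higher in KO hearts. Summed footprints overlapped between genotypes for each of these lists, at 842 to 1447 in KO hearts and 849 to 1772 in WT hearts for skeletal muscle. Their part in the clock gene values was not tested.

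Promoter sequences of 4 genes are shown because they hold an example of each clock-related motif found. RefSeq promoter windows of 300 bases on build GRCm38.p6, from 250 bases before to 50 after the start site, were matched for 9 of the 10 genes, all but Per2. Both strands were searched for the E-box CACGTG, the variant E'-box CACGTT, the D-box TTANGTAA, the ROR element (ANNTN followed directly by GGTCA) and the cyclic AMP element TGACGTCA. Capitals mark the matches. The first is Arntl at chr7:113207261-113207560 on the plus strand, where a ROR element, the kind of site that REV-ERB proteins occupy, begins 27 bases after the start site. The second is Per1 at chr11:69098699-69098998 on the plus strand, with an E-box that begins at -166. The third is Cry1 at chr10:85185005-85185304 on the minus strand, with an E'-box at -79 and an E-box at -60. The last is Per3 at chr4:151044616-151044915 on the minus strand, with D-boxes at -205 and -158.
Arntl: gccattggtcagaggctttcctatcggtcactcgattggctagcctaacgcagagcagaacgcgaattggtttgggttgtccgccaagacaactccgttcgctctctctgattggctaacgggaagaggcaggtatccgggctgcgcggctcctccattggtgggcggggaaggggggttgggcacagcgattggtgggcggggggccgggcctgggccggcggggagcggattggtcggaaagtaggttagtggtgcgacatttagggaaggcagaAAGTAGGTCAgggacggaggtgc
Per1: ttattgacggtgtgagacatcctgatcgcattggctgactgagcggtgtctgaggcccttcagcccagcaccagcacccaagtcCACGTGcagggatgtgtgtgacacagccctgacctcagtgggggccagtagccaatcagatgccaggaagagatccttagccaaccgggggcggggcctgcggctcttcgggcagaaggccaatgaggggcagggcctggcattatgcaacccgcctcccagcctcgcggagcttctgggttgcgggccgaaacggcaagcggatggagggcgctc
Cry1: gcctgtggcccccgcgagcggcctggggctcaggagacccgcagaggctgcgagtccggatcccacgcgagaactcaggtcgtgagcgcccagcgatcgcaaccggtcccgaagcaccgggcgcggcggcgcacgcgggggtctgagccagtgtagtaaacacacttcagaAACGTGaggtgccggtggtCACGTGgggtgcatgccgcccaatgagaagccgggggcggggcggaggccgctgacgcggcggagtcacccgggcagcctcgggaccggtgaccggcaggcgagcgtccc
Per3: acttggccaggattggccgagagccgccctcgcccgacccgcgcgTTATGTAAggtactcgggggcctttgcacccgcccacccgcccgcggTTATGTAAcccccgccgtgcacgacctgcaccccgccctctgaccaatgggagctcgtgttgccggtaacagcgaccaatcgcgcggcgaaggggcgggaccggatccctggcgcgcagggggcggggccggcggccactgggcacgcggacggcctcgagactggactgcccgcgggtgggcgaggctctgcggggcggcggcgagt

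Several windows exist for Arntl, Clock and Per1, so the 9 genes had 13 promoters. The E-box was found in 2 of the 13, of Per1 and Cry1, and in 7.15% of all 32851 promoters searched. The E'-box was found in 3 of the 13, of Cry1, Cry2 and Nr1d1, and in 4.68% of all promoters. The D-box was found in 1 of the 13, of Per3, and in 2.32% of all. The ROR element was found in 1 of the 13, of Arntl, and in 2.46% of all. The cyclic AMP element was found in 0 of the 13 and in 1.79% of all. These matches are runs of letters in the window and no binding was measured.

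KO heart 6, WT heart 1 and WT heart 2 stood apart from the other 6 hearts in most clock genes, and in the same direction in both genotypes. They had the 3 highest Arntl levels in RNA and in footprints. They also had the 3 lowest RNA levels for 7 of the 10 genes, namely Per1, Per2, Per3, Cry2, Nr1d1, Nr1d2 and Dbp, and the 3 lowest footprint levels for 6 of them, all but Per3. Some genes outside the loop moved with all or part of these 3 hearts too, and are named after their values were seen. Pdk4, a metabolic kinase gene on the list of clock outputs, had 22447 normalized RNA reads in KO heart 6 and 9067 and 11969 in WT hearts 1 and 2, against 2248 to 6361 in the other KO hearts and 2631 and 4541 in the other WT hearts. Ucp3, from the same list, had 1475 in KO heart 6 and 987 and 940 in WT hearts 1 and 2, against 275 to 873 in the other KO hearts and 415 and 418 in the other WT hearts. The atrial marker Myl7 was highest of each genotype in these hearts, at 791 in KO heart 6 and 266 and 212 in WT hearts 1 and 2. Myl4, the other atrial marker, did not follow in RNA. It was 3690 in KO heart 6, inside the range of the other KO hearts. WT hearts 1 and 2 were the lowest of their genotype, at 8169 and 10831. In footprints Myl4 was highest of each genotype in the same hearts. The fibroblast marker Col3a1 was 5499 in KO heart 6 and 4651 in WT heart 2, against at most 3281 elsewhere, with 3239 in WT heart 1. Col1a1 and Dcn RNA was also highest in KO heart 6 and WT heart 2. Col1a2 was 2086 in KO heart 7 against 2009 in WT heart 2. Pdgfra was 456 in WT heart 4 against 405 in WT heart 2. The part of these differences in the clock gene values was not tested. The clock gene results were therefore also computed without these 3 hearts, a choice made after their values were seen. Leaving out hearts picked by the clock gene values can lower the spread within a genotype. The p-values and calls of those fits, and of the fit without KO heart 6, are therefore descriptions.

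**Figure D1:**
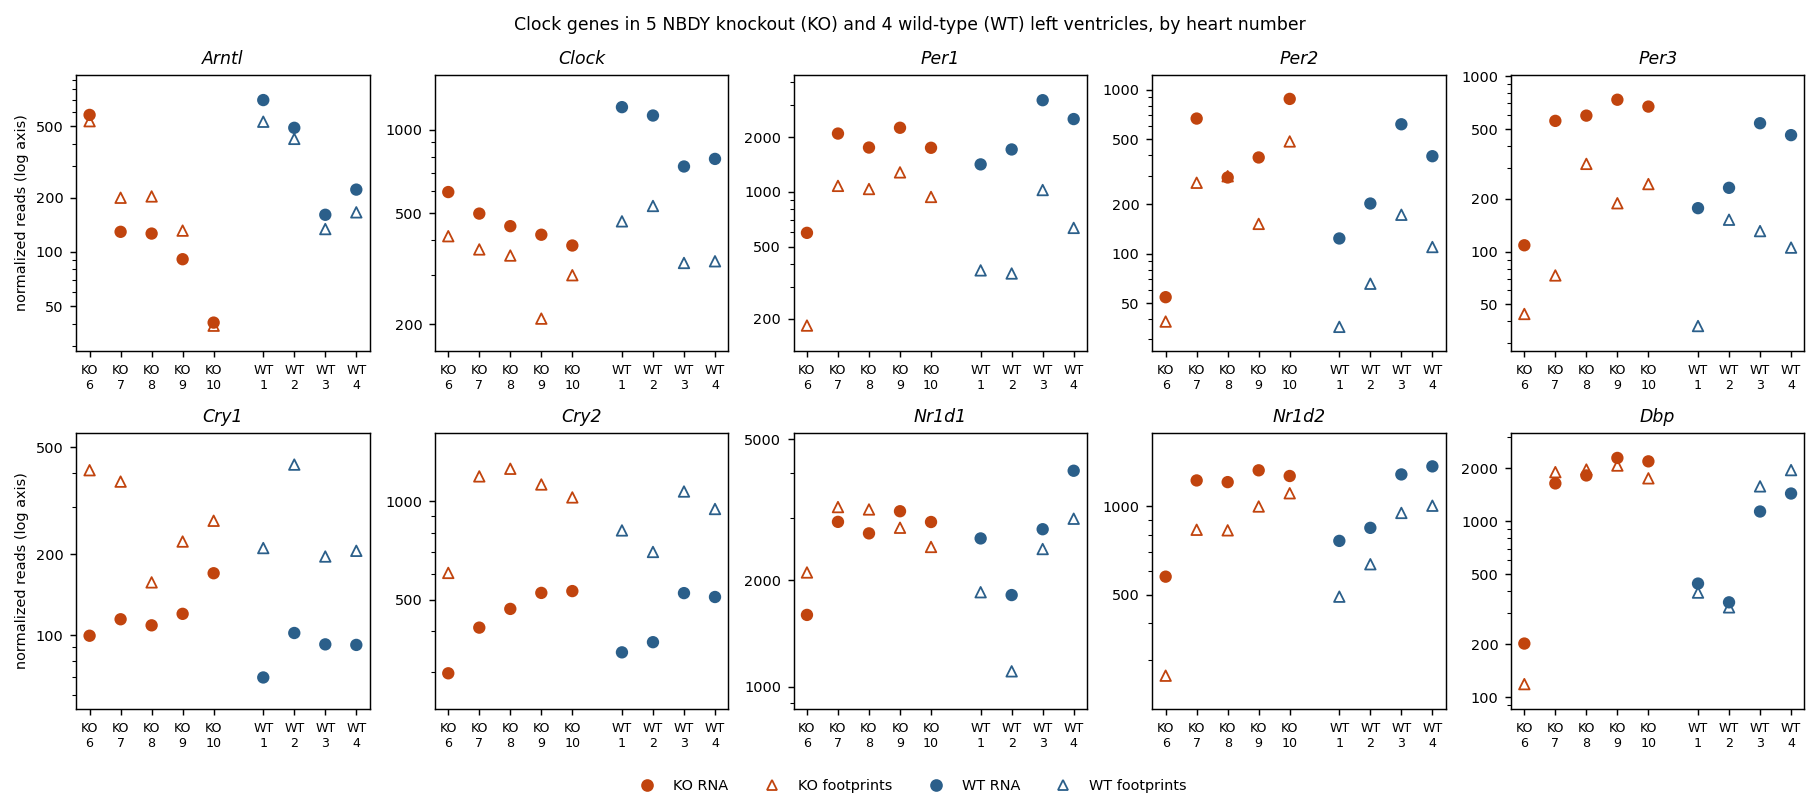
Normalized reads (log axis) of each clock gene in each heart, with RNA as filled circles and footprints as open triangles, KO hearts in orange left of WT hearts in blue. KO heart 6, WT heart 1 and WT heart 2 are high for Arntl and low for Dbp, at 202, 443 and 346 normalized RNA reads of Dbp.

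Arntl, the gene of BMAL1 at chr7:113178471-113314126, spanned the widest range of the 10 genes in RNA. Its RNA was 577, 129, 126, 91.1 and 40.5 normalized reads in KO hearts 6, 7, 8, 9 and 10, against 697, 489, 161 and 222 in WT hearts 1, 2, 3 and 4. KO heart 6 was within the WT range, while the other 4 KO hearts were below every WT heart. Arntl footprints were 532, 200, 203, 131 and 38.9 in KO hearts 6 to 10, against 529, 425, 134 and 166 in WT hearts 1 to 4, so the genotypes overlapped in footprints too. The RNA difference did not pass the threshold, with KO over WT at -1.36 on the log2 scale (SE 0.64, adjusted p = 0.0975 in limma over all genes tested). Without KO heart 6 it was -1.90 (adjusted p = 0.00611 in limma) and without hearts 1, 2 and 6 it was -1.09 (adjusted p = 0.0705 in limma).

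Clock, the partner of BMAL1 at chr5:76209868-76305603, fell in KO RNA, with the smallest adjusted p of the 10 genes. Its RNA was 596, 499, 450, 419 and 383 normalized reads in KO hearts 6 to 10, against 1204, 1123, 737 and 785 in WT hearts 1 to 4. Every KO heart was below every WT heart, and within WT the hearts 1 and 2 were again the higher pair. The mean was 469 ± 82.7 in KO hearts and 962 ± 236 in WT hearts (SD, n = 5 and 4), a limma log2 fold change of -1.02 (SE 0.16, adjusted p = 0.000326). Without hearts 1, 2 and 6 the fold change was -0.80 (adjusted p = 0.000834 in limma). In bulk tissue, fewer cells of a type and less RNA per cell cannot be told apart.

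Clock footprints were 414, 371, 353, 209 and 299.7 in KO hearts 6 to 10, against 468, 532, 332 and 336 in WT hearts 1 to 4. Here 3 KO hearts were inside the WT range. The footprint fold change was -0.35 on the log2 scale (SE 0.23, limma adjusted p = 0.851).

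Per1, a repressor gene at chr11:69095108-69109965, was lowest in KO heart 6, WT heart 1 and WT heart 2 in both assays. Its RNA was 595, 2092, 1752, 2251 and 1747 normalized reads in KO hearts 6 to 10, against 1416, 1710, 3192 and 2513 in WT hearts 1 to 4. Its footprints were 184, 1078, 1036, 1279 and 937 in KO hearts, against 369.8, 355, 1023 and 633 in WT hearts. KO hearts 7, 8 and 9 exceeded every WT heart in footprints but none did in RNA. The log2 fold change was -0.45 in RNA (SE 0.36, limma adjusted p = 0.320) and 0.48 in footprints (SE 0.45, limma adjusted p = 0.860). Without hearts 1, 2 and 6, which were picked by such values, the RNA fold change was -0.54 (SE 0.13, limma adjusted p = 0.0117).

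Per2, at chr1:91415977-91459351, is the Per gene whose loss shortens and then abolishes the rhythm of mouse running-wheel activity. Its RNA was 54.3, 668, 292, 387 and 881 normalized reads in KO hearts 6 to 10, against 124, 202, 617 and 394 in WT hearts 1 to 4. Its footprints were 38.5, 271, 297, 152 and 484 in KO hearts, against 35.8, 65.6, 173 and 109.8 in WT hearts. KO heart 10 was highest and KO heart 6 lowest in RNA, and 3 KO hearts lay above the highest WT heart in footprints. The log2 fold change was 0.22 in RNA (SE 0.71, limma adjusted p = 0.818) and 1.19 in footprints (SE 0.59, limma adjusted p = 0.851). Per2 footprints rest on 70 to 585 reads in KO hearts and 19 to 145 in WT hearts, the fewest being in WT heart 2.

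Per3, at chr4:150997018-151044707, encodes the PER protein that the mouse oscillator can run without. Its RNA was 109, 556, 596, 734 and 671 normalized reads in KO hearts 6 to 10, against 177, 231, 539 and 461 in WT hearts 1 to 4. The 4 KO hearts other than heart 6 lay above every WT heart. Its footprints were 44.0, 73.0, 316, 189 and 243 in KO hearts, against 37.6, 152, 131 and 105 in WT hearts. They rest on 76 to 364 reads in KO hearts and 44 to 139 in WT hearts. The RNA log2 fold change stood at 0.49 (SE 0.52, limma adjusted p = 0.460). It was 1.00 without KO heart 6 (limma adjusted p = 0.0166) and 0.35 without hearts 1, 2 and 6 (limma adjusted p = 0.0490).

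Cry1, at chr10:85131700-85185054, encodes a strong repressor of CLOCK and BMAL1. It rose slightly in KO RNA, though its genotypes overlapped. Its RNA was 99.5, 115, 109, 120 and 170 normalized reads in KO hearts 6 to 10, against 69.6, 102, 92.4 and 92.0 in WT hearts 1 to 4. KO heart 10 was the highest and WT heart 1 the lowest, and KO heart 6 was the one KO heart inside the WT range. The mean was 123 ± 27.6 in KO hearts and 89.0 ± 13.7 in WT hearts (SD, n = 5 and 4), a limma log2 fold change of 0.45 (SE 0.17, adjusted p = 0.0414). The call was lost without KO heart 7, KO heart 9, KO heart 10, WT heart 1, WT heart 3 or WT heart 4, with limma adjusted p from 0.0578 to 0.117. It was also lost without hearts 1, 2 and 6 together, at 0.45 (limma adjusted p = 0.0882), and with quantile normalization, at 0.33 (limma adjusted p = 0.145). Footprints of Cry1 were 411, 373, 157, 223 and 267 in KO hearts, against 211, 431, 196 and 206 in WT hearts. They did not follow the RNA across hearts, since KO heart 6 and WT heart 2 held the highest footprint levels. The footprint log2 fold change stood at 0.13 (SE 0.30, limma adjusted p = 0.944).

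Cry2, at chr2:92403646-92434085, encodes the second cryptochrome repressor. It had 298, 411, 469, 525 and 532 normalized RNA reads in KO hearts 6 to 10, against 345, 371, 524 and 510 in WT hearts 1 to 4. Its footprints were 604, 1194, 1259.6, 1127 and 1029 in KO hearts, against 815, 701, 1073 and 948 in WT hearts. The genotypes overlapped in both assays, with KO heart 6 lowest in each. The log2 fold change was 0.02 in RNA (SE 0.18, limma adjusted p = 0.920) and 0.21 in footprints (SE 0.20, limma adjusted p = 0.860).

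Nr1d1, the REV-ERB alpha gene at chr11:98767932-98775377, had 1594, 2919, 2709, 3128 and 2917 normalized RNA reads in KO hearts 6 to 10. WT hearts 1 to 4 had 2621, 1814, 2783 and 4071. Its footprints were 2100, 3214, 3165, 2810 and 2480 in KO hearts, against 1847, 1104, 2446 and 2979 in WT hearts. KO hearts 7 and 8 were highest in footprints and WT heart 4 was highest in RNA, and the genotypes overlapped in both. The log2 fold change was -0.07 in RNA (SE 0.23, limma adjusted p = 0.823) and 0.47 in footprints (SE 0.22, limma unadjusted p = 0.0489, adjusted p = 0.851). Nr1d1 overlaps Thra, a thyroid hormone receptor gene, and the RNA kit does not mark strand. Thra RNA was 1177 to 1441 in KO hearts and 1288 to 1438 in WT hearts, a far narrower range than that of Nr1d1.

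Nr1d2, the REV-ERB beta gene at chr14:18204056-18239106, followed the same hearts. Its RNA was 576, 1226, 1210, 1327 and 1269 normalized reads in KO hearts 6 to 10, against 763, 845, 1285 and 1369 in WT hearts 1 to 4. Its footprints were 265, 832, 828.7, 999 and 1109 in KO hearts, against 492, 635, 950 and 1005 in WT hearts. KO heart 6 was lowest in both assays, and the genotypes overlapped in each. The log2 fold change was 0.06 in RNA (SE 0.25, limma adjusted p = 0.859) and -0.02 in footprints (SE 0.33, limma adjusted p = 0.993).

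Dbp, the output factor at chr7:45705100-45710203, was low in KO heart 6 and in WT hearts 1 and 2 and several times higher in the other 6 hearts. Its RNA was 202, 1640, 1820, 2288 and 2188 normalized reads in KO hearts 6 to 10, against 443, 346, 1136 and 1437 in WT hearts 1 to 4. Its footprints were 119, 1900, 1966, 2071 and 1753 in KO hearts, against 393, 324, 1577 and 1951 in WT hearts. The 4 KO hearts other than heart 6 exceeded every WT heart in RNA, while WT heart 4 was among them in footprints. The RNA log2 fold change stood at 0.82 (SE 0.68, limma adjusted p = 0.337). It was 1.47 without KO heart 6 (limma adjusted p = 0.00821) and 0.62 without hearts 1, 2 and 6 (limma adjusted p = 0.0103). The footprint fold change was 0.48 on the log2 scale (SE 0.71, limma adjusted p = 0.915). Dbp overlaps Sphk2, a sphingosine kinase gene, whose RNA was 320 to 483 in KO hearts and 433 to 623 in WT hearts. The remaining overlapping genes of the 10 were not analysed here.

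Setting Dbp against Arntl in each heart gave a ratio that can be compared between hearts. Since reads were not divided by length, its 0 point has no meaning. In RNA, log2 of Dbp over Arntl was -1.51, 3.65, 3.84, 4.64 and 5.72 in KO hearts 6 to 10, against -0.65, -0.50, 2.81 and 2.69 in WT hearts 1 to 4. In footprints it was -2.15, 3.24, 3.27, 3.97 and 5.46 in KO hearts, against -0.43, -0.39, 3.55 and 3.55 in WT hearts. KO heart 6 and WT hearts 1 and 2 had the 3 lowest ratios in both assays. In RNA the 4 higher KO hearts exceeded the 2 higher WT hearts, and in footprints they did not all do so. This ratio is a description and was given no test.

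**Figure D2:**
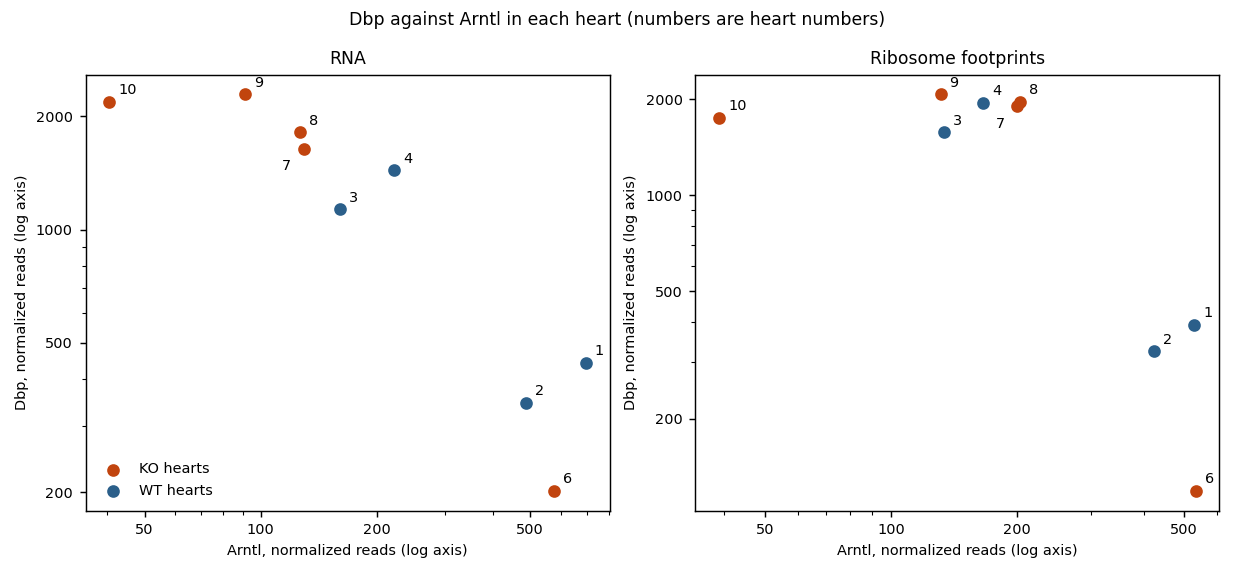
Dbp against Arntl in normalized reads (both axes log) for RNA and for footprints, each point a heart with its number, KO in orange and WT in blue. Hearts 6, 1 and 2 lie at the lower right of both panels, with log2 of Dbp over Arntl in RNA of -1.51, -0.65 and -0.50.

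**Figure D3:**
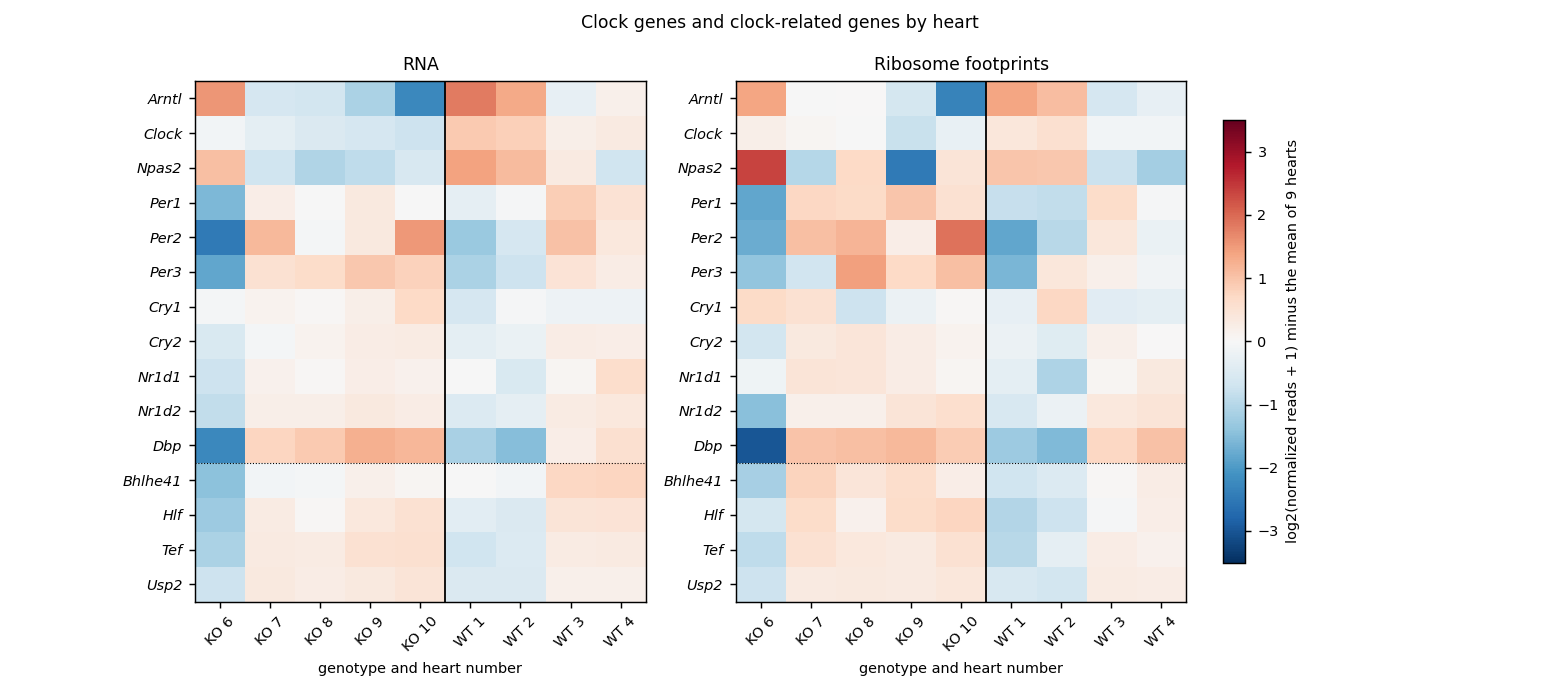
Difference of each heart from the mean of the 9 hearts on the log2 scale, for the clock genes with Npas2 placed after Clock, and, under the dotted line, for 4 genes whose RNA pattern was most like that of Dbp. KO hearts are left of the line and WT hearts right of it. In KO heart 6 and WT hearts 1 and 2, Arntl is above and Dbp below the mean of the 9 hearts in both assays.

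The clock genes varied more between hearts of one genotype than most genes did. The within-genotype SD of log2 RNA was 1.36 for Per2, 1.30 for Dbp, 1.22 for Arntl and 1.00 for Per3, against a median of 0.14 over all genes tested. At least 99.6% of genes had a smaller SD than each of these 4. Clock (0.30) and Cry1 (0.27) varied least of the 10, with a smaller SD in 88.5% and 85.2% of all genes. In footprints the SD was 1.61 for Dbp and 0.37 for Clock and for Cry2, against a median of 0.30.

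For the same gene, the highest RNA level over the lowest among the 9 hearts was 17.2-fold for Arntl, 16.2-fold for Per2 and 11.3-fold for Dbp. It was 1.79-fold for Cry2 and 2.38-fold for Nr1d2, and the median gene had 1.57-fold. Footprints of Dbp spanned 17.4-fold. The hearts at the bottom were shared by both assays, since the lowest 3 hearts were the same in RNA and in footprints for 6 of the 10 genes. The highest 3 were the same for 2 genes, Arntl and Per3.

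Against this spread, 2 of the 10 genes passed the threshold in RNA between genotypes, where 49.4% of all 10580 genes tested did. Clock was the 1 called lower in KO hearts, as were 25.1% of all genes, and Cry1 the 1 called higher, as were 24.3%. The share among the clock genes was thus not above that of all genes. KO and WT hearts did not overlap for 1 clock gene, Clock, and for 40.5% of all genes. The median log2 fold change was 0.04 over the 10 genes and 0.01 over all genes. Without KO heart 6 there were 5 calls, of Arntl, Clock, Per3, Cry1 and Dbp, where 47.9% of all genes were called. Without hearts 1, 2 and 6 there were 4, of Clock, Per1, Per3 and Dbp, where 40.2% were. These counts are descriptions, since the hearts left out were picked by the values of these genes.

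In footprints 0 of the 10 genes passed the threshold in limma, where 0.02% of 9976 genes did, 2 in all. At an unadjusted p under 0.05 there was 1 clock gene, Nr1d1, and 505 genes in all. The edgeR quasi-likelihood test and DESeq2 on whole footprint reads also called 0 of the 10, with 1 and 0 at an unadjusted p under 0.05. Over all genes these tests had 481 of 9976 and 536 of 10299 under 0.05. KO and WT hearts overlapped for every clock gene, and did not overlap for 1.6% of all genes. The median footprint log2 fold change was 0.34 over the 10 genes and -0.0027 over all genes. Adjusted p-values of the 10 genes ran from 0.851 to 0.993 in limma.

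**Figure D4:**
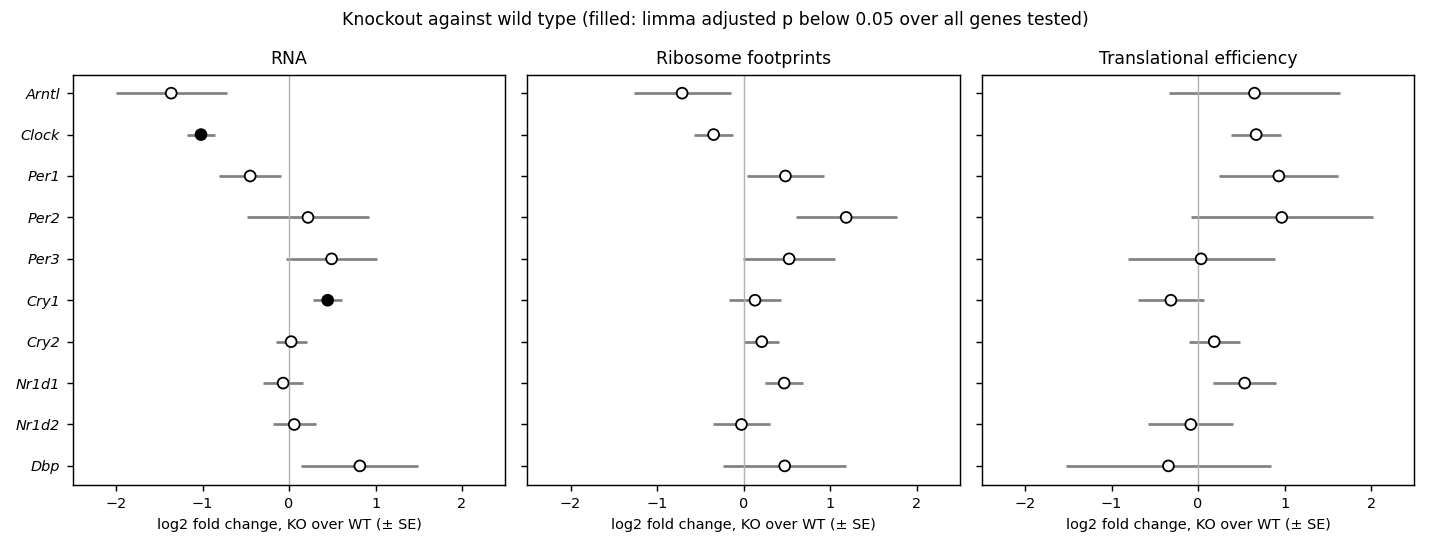
Log2 fold change of each clock gene, KO over WT, with its SE as a bar, for RNA, footprints and translational efficiency without a term for the heart. Filled points mark limma adjusted p below 0.05, which are Clock at -1.02 and Cry1 at 0.45 in RNA.

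Translational efficiency is the footprint signal over the RNA signal of the same heart. In the main fit, which had no term for the heart, 0 of the 10 clock genes passed the threshold. Estimates for Per1, Clock, Nr1d1 and Per2 were higher in KO hearts in that fit, and blocking by heart left them unchanged. Their errors became smaller under the block, and these 4 genes then passed. For Per1 the efficiency was 0.309, 0.516, 0.591, 0.568 and 0.536 in KO hearts 6 to 10, against 0.261, 0.208, 0.321 and 0.252 in WT hearts 1 to 4. All KO hearts but heart 6 were above every WT heart. For Clock it was 0.694, 0.743, 0.784, 0.4995 and 0.782 in KO hearts, against 0.389, 0.473, 0.450 and 0.429 in WT hearts. Every KO heart was above every WT heart, with KO heart 9 nearest to them.

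For Per2 the efficiency was 0.710, 0.406, 1.02, 0.393 and 0.550 in KO hearts, against 0.289, 0.324, 0.280 and 0.279 in WT hearts. KO and WT hearts did not overlap, and the KO hearts were the more scattered. For Nr1d1 it was 1.32, 1.10, 1.17, 0.898 and 0.850 in KO hearts, against 0.705, 0.609, 0.879 and 0.732 in WT hearts. KO heart 10 lay below WT heart 3, and the other KO hearts above every WT heart. For Arntl it was 0.923, 1.55, 1.61, 1.44 and 0.961 in KO hearts, against 0.758, 0.868, 0.833 and 0.748 in WT hearts. Here KO and WT hearts did not overlap, with KO hearts 6 and 10 the lowest of their genotype.

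The fit without a term for the heart called 0 of the 10 genes, where 14.4% of 9974 genes passed. At an unadjusted p under 0.05 there was 1 clock gene, Clock, and 2772 genes in all. In this fit the log2 fold change was 0.93 for Per1 (SE 0.69, limma adjusted p = 0.413), 0.67 for Clock (SE 0.29, 0.131), 0.54 for Nr1d1 (SE 0.36, 0.365) and 0.97 for Per2 (SE 1.05, 0.599). With the heart as a replicate block, which pairs the RNA and footprint libraries of the same ventricle, these fold changes were the same and their errors smaller. The blocked limma fit gave an SE of 0.19 for Per1 (adjusted p = 0.00329), 0.17 for Clock (adjusted p = 0.0117), 0.14 for Nr1d1 (adjusted p = 0.0173) and 0.28 for Per2 (adjusted p = 0.0255). So 4 of the 10 genes were called under the block, all higher in KO hearts, where 18.6% of all genes were called and 9.92% called higher. Arntl had a fold change of 0.65 that did not pass (blocked limma adjusted p = 0.0661).

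Leaving out each heart in turn under the block gave 3 to 5 calls, where 14.3% to 17.4% of all genes were called. Per1, Clock and Nr1d1 passed each time. Per2 was lost without KO heart 8, KO heart 10, WT heart 1, WT heart 3 or WT heart 4, with limma adjusted p from 0.0502 to 0.0650. Arntl passed without KO heart 6 or KO heart 10. Without hearts 1, 2 and 6 the block called 1 of the 10, where 10.8% of 9959 genes were called. It was Per1, at 0.96 (limma adjusted p = 0.00315). Clock had 0.65 (limma adjusted p = 0.0948), Per2 0.96 (limma adjusted p = 0.0996) and Nr1d1 0.31 (limma adjusted p = 0.227).

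KO and WT hearts did not overlap in efficiency for 3 of the 10 genes, Arntl, Clock and Per2, all higher in KO hearts, and for 18.3% of all genes, 9.56% being higher in KO hearts. Efficiency of Cry1 was 1.45 to 4.13 in KO hearts and 2.12 to 4.23 in WT hearts, that of Cry2 1.94 to 2.90 in KO hearts and 1.86 to 2.36 in WT hearts. Per3 had 0.131 to 0.530 in KO hearts and 0.213 to 0.658 in WT hearts, where WT heart 2 alone exceeded every KO heart. Nr1d2 had 0.460 to 0.873 in KO hearts and 0.645 to 0.752 in WT hearts, and Dbp 0.588 to 1.16 in KO hearts and 0.889 to 1.39 in WT hearts. These 5 genes did not pass with or without the block. The median efficiency fold change was 0.36 on the log2 scale over the 10 genes and -0.02 over all genes.

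**Figure D5:**
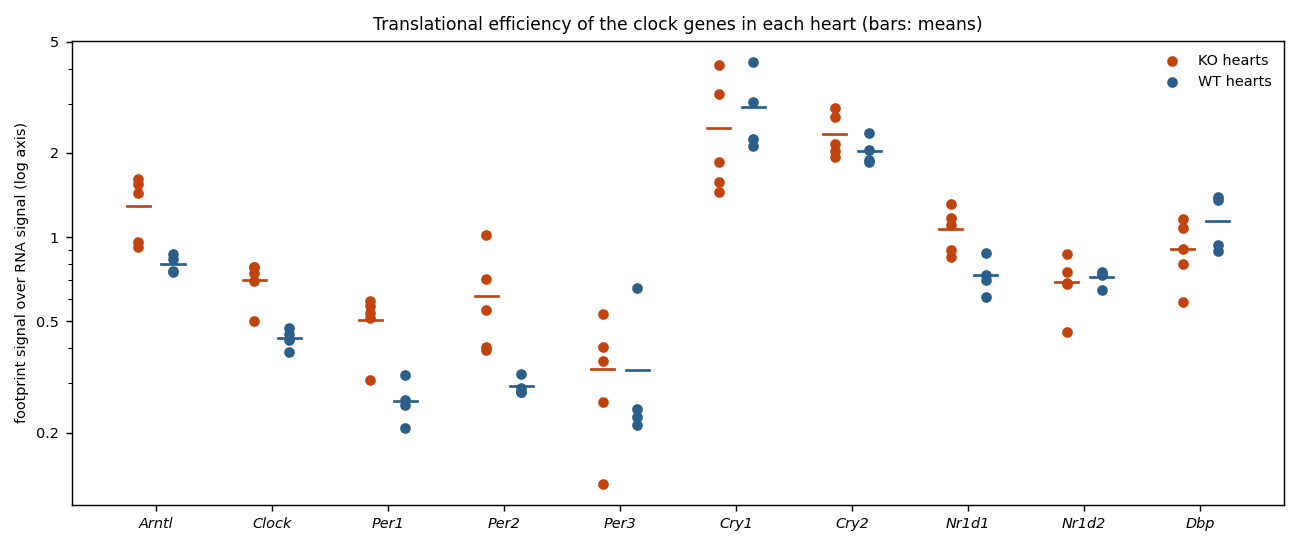
Translational efficiency (footprint signal over RNA signal, log axis) of each clock gene, with a point per heart and a bar at the mean, KO in orange left of WT in blue. The 5 KO hearts lie above all 4 WT hearts for Arntl, Clock and Per2, and all but KO heart 6 (0.309) do so for Per1.

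The genes whose RNA followed Dbp most closely across hearts were themselves clock factors or clock outputs. Likeness was the Pearson correlation of log2 RNA over the 9 hearts after each genotype's mean was subtracted, computed for 10579 other genes as a description only. It was highest for Bhlhe41 (0.996), a repressor that competes for E-boxes, then for Hlf and Tef (both 0.983), which encode the relatives of DBP in the PAR bZIP family. Usp2, a deubiquitinase gene, had 0.982 and Nr1d2 0.981. Without hearts 2 and 6, the farthest from the median of Dbp, these 5 values were 0.923 to 0.985, and in footprints they were 0.911 to 0.978.

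Bhlhe41 RNA was 167, 425, 428, 508 and 472 normalized reads in KO hearts 6 to 10, against 447, 420, 750 and 767 in WT hearts 1 to 4. KO heart 6 was lowest, and WT hearts 3 and 4 were highest. Its RNA log2 fold change stood at -0.62 (SE 0.31, limma adjusted p = 0.117). Hlf RNA was 82.2, 241, 205, 256 and 289 in KO hearts, against 153, 139, 273 and 279 in WT hearts. Tef RNA was 369, 981, 970, 1152 and 1161 in KO hearts, against 490, 565, 958 and 977 in WT hearts. Both were lowest in KO heart 6, followed by WT hearts 1 and 2.

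Among the 10 genes, likeness to Dbp in RNA was 0.976 for Per3, 0.943 for Per1, 0.938 for Cry2, 0.909 for Nr1d1 and 0.890 for Per2. Without hearts 2 and 6 these values were 0.954, 0.822, 0.929, 0.683 and 0.719 in the same order. In footprints of all 9 hearts they were 0.620, 0.962, 0.951, 0.741 and 0.868. Cry1 had 0.461 in RNA and -0.635 in footprints. Clock had -0.845 and Arntl -0.903. The genes least like Dbp were Sbno2 (-0.968), Zfp160 (-0.961), Gm5431 (-0.957), Fxyd5 (-0.956) and Irs1 (-0.952), the last an adaptor of the insulin receptor.

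Arntl had its closest RNA likeness with Abca1 (0.983), which encodes a cholesterol exporter, followed by Bace1 (0.972), Map3k1 (0.971), Slc41a3 (0.969) and Tor3a (0.968). In footprints these 5 values ran from 0.212 for Map3k1 to 0.935 for Slc41a3. The opposite pattern was closest for Tcim (-0.979), Tspan4 (-0.974), Herpud1 (-0.965), Plekha6 (-0.957) and Rbm5 (-0.956). Clock, the partner of BMAL1, had a likeness of 0.917 to Arntl.

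Of 21 other clock regulators looked for, 17 were in the tables, and in RNA 6 fell and 0 rose in KO hearts. That is 35.3% of the 17, against 25.1% of all genes called lower and 49.4% called in either direction. Nono and Tipin are given as examples. Nono, which encodes an RNA-binding partner of PER proteins, had 1487 to 1599 normalized RNA reads in KO hearts and 2621 to 2898 in WT hearts, a log2 fold change of -0.85 (limma, SE 0.05, adjusted p = 2.9e-07). Tipin, which encodes the partner of TIMELESS, had 71.3 to 112 in KO hearts and 138 to 193 in WT hearts, a log2 fold change of -0.90 (limma, SE 0.16, adjusted p = 0.000638). Neither gene overlapped between genotypes in RNA. The median RNA log2 fold change of the 17 was -0.20, against 0.01 over all genes. In footprints 0 of 17 passed in limma, with 1 at an unadjusted p under 0.05, where 505 of all 9976 genes were. In efficiency, by the fit without a term for the heart, Nono (0.81, limma adjusted p = 0.00719) and Tipin (1.15, limma adjusted p = 0.0216) rose. That is 11.8% of the 17 against 14.4% called over all genes, where 781 of 9974 were called higher. The same fit called 0 of the 10 clock genes.

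Of 11 genes known as clock outputs in heart, 3 rose and 1 fell in KO RNA, 36.4% of the 11 against 49.4% called over all genes. Those that rose were Tspan4 (1.36, limma adjusted p = 0.000143), Dgat2 (0.65, 0.00405) and Cirbp (0.57, 0.00637), and Nampt fell (-0.46, 0.0340), all as log2 fold changes. Dgat2, which makes triglyceride, had 3147 to 4997 normalized RNA reads in KO hearts and 2129 to 3559 in WT hearts, which overlap. Tspan4, which encodes a tetraspanin, had 214 to 435 in KO hearts and 104 to 161 in WT hearts, with no overlap. In efficiency, by the fit without a term for the heart, Tspan4 (-1.26, limma adjusted p = 0.00469) and Dgat2 (-0.78, limma adjusted p = 0.0148) fell. That is 18.2% of the 11 against 14.4% called over all genes, where 653 of 9974 were called lower. In footprints 0 of the 11 passed, with 1 at an unadjusted p under 0.05 in limma, where 505 of all 9976 genes were. The median RNA log2 fold change of these 11 genes was 0.17.

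Immediate early genes and glucocorticoid-responsive genes, which respond to handling and to hormone surges, were also counted. Of 8 immediate early genes in the tables, Jun (-0.78, limma adjusted p = 0.00679) and Dusp1 (-0.68, limma adjusted p = 0.00899) fell in KO RNA and 0 rose, 25% of the 8. Of 5 glucocorticoid-responsive genes, Sgk1 fell (-0.57, limma adjusted p = 0.00177) and 0 rose, 20% of the 5. These calls were all lower in KO hearts, as were 25.1% of all genes, while 49.4% were called in either direction. In footprints 0 of these genes passed in limma, with 2 immediate early genes at an unadjusted p under 0.05, where 505 of all 9976 genes were. In efficiency, by the fit without a term for the heart, Jun (1.24, limma adjusted p = 0.0150) and Sgk1 (0.64, limma adjusted p = 0.0439) rose. That is 12.5% of the 8 and 20% of the 5, against 14.4% called over all genes, where 781 of 9974 were called higher. These values stand beside the clock genes as measurements, and their part in the clock gene values was not tested.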

How the data were processed

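Poly-A RNA and ribosome footprints of 9 left ventricles gave 18 libraries. The build GRCm38 (mm10) and the tools STAR (version 2.7.1a), HTSeq and DESeq2 are named per the submitters' processing notes. Per the labels' protocols, RNA libraries came from a TruSeq kit, which does not mark strand. The authors deposited normalized read signal per library, gene counts divided by a size factor, and their log2 fold changes with p-value columns. The deposited efficiency fold change runs as wild type over knockout (95.3% of genes had the opposite sign to knockout over wild type) and was turned round. The 9 deposited columns of efficiency ratio per heart were not used, and the ratio was computed from the RNA and footprint signal.

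Of 10597 gene IDs, 10560 matched a symbol. limma 3.58.1 in R 4.3.3 was fitted across all genes with a mean of at least 10, on log2(value + 1) with a mean-variance trend. A fold change on that scale understates the change of low genes. The threshold was a Benjamini-Hochberg adjusted p of 0.05. Efficiency was tested as the interaction of genotype with assay over all libraries. RNA and footprint libraries of the same number come from 1 ventricle per the labels, so the heart pairs them. Deviations from the genotype mean correlated at 0.277 to 0.662 within a heart over 3233 genes, and 7 of 9 hearts matched their own library best. Alternatives were the heart kept as a block in the efficiency model, other pseudocounts, filters and scalings, each heart left out, edgeR 4.0.16 and DESeq2 1.42.0 on whole footprint reads, and the authors' deposited table. Whole reads were recovered for 100% of footprint values within 0.01 reads. The fits without the block were also run on simulated counts that had no shift shared by the libraries of a heart. The blocked fit was not run on them.

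The clock genes and the gene lists were chosen with earlier results of these data known, so counts over them are descriptions. Named genes are the 10 clock genes, list members past the threshold, and the 5 highest and 5 lowest in likeness to Dbp and to Arntl. Others, such as Pdk4, Ucp3, Npas2, Ciart and some cell type markers, did not pass and were named after their values were seen. P-values set the genotype difference against the spread between these hearts, and limma draws each gene's variance toward a trend over all genes. In the blocked efficiency fit the spread is what remains after each heart's own level is removed. List members not in the tables (Arntl2, Rora, Rorb, Fbxl21, Fosb, Ptprc, Sln, Tnnt3 and Tnni2) were not analysed here.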

Additional observations from a re-analysis of the deposited data

Results flagged for a closer look

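A heart far from the others of its genotype was found in 14 of 60 groups of values, one group for each clock gene, measure and genotype; chance alone gives about 1 in 20. KO heart 6 was the low value in 10 of them. These were Per1 RNA (595 normalized reads), Per1 footprints (184), Per1 efficiency (0.309), Per3 RNA (109), Cry2 footprints (604), Nr1d1 RNA (1594), Nr1d2 RNA (576), Nr1d2 footprints (265), Dbp RNA (202) and Dbp footprints (119). The 10 groups share 1 heart and its libraries and are not independent.

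KO heart 9 had a Clock efficiency of 0.4995, below the other KO hearts. WT heart 2, whose footprint library was the shallowest, stood above the other WT hearts in Per3 efficiency (0.658) and in Cry1 footprints (431). WT heart 1 had an Nr1d2 efficiency of 0.645, below the other WT hearts.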

How the results depend on the processing

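Clock RNA was lower in KO hearts and past the threshold under every alternative run, from -1.13 to -0.90 on the log2 scale with 1 heart left out. The number of clock genes called in RNA was 2, against 1 with quantile normalization, 4 without hearts 1, 2 and 6, and 1 to 5 with 1 heart left out. In these 3 settings 48.8%, 40.2% and 45.1% to 47.9% of all genes were called. In footprints the count over all genes was 2, against 1 with no filter, 0 without hearts 1, 2 and 6, 6 with DESeq2, 6 in the authors' deposited table, and 0 to 3 with 1 heart left out. In efficiency 714 genes were called without hearts 1, 2 and 6, against 1434, and the range with 1 heart left out was 993 to 1220. Clock genes called in efficiency numbered 0, against 1 without hearts 1, 2 and 6, 4 with the heart as a replicate block, 3 to 5 with the block and 1 heart left out, and 1 with the block and without hearts 1, 2 and 6. The shares called over all genes were 14.4%, against 7.17%, 18.6%, 14.3% to 17.4% and 10.8% in the same order. Leaving out 1 heart gave 4772 to 5064 calls in RNA. The causes of these differences were not tested.

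Directions near 0 turned for Cry2 RNA (-0.10) and Nr1d2 RNA (-0.077) without hearts 1, 2 and 6, for Nr1d1 RNA (0.0086) with quantile normalization, and for Nr1d2 footprints in edgeR (0.058), DESeq2 (0.065) and the authors' deposited table (0.023). Nr1d2 efficiency turned without hearts 1, 2 and 6, with and without the block (0.013). With the block and 1 heart left out, Per3 efficiency turned to -0.071, -0.16 and -0.025 without KO hearts 6, 8 and 10 and to -0.12, -0.064 and -0.092 without WT hearts 1, 3 and 4, and Nr1d2 efficiency to 0.054 without KO heart 6. With 1 heart left out and no block, ranges that crossed 0 were -0.17 to 0.86 for Per2, -0.081 to 0.16 for Cry2, -0.26 to 0.13 for Nr1d1 and -0.085 to 0.28 for Nr1d2 in RNA. In footprints they were -0.019 to 0.40 for Cry1 and -0.22 to 0.34 for Nr1d2, and in efficiency -0.16 to 0.41 for Per3 and -0.18 to 0.054 for Nr1d2.

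The mean log2 ratio of Dbp to Arntl with 1 heart left out was 2.65 to 4.46 in KO RNA, 0.51 to 1.67 in WT RNA, 2.08 to 3.98 in KO footprints and 0.91 to 2.24 in WT footprints. Count tests on RNA were not run. RNA values were whole multiples of the smallest value of their library in 100% of cases, but that this value is 1 read was not checked separately. Few reads limit Per2 and Per3 footprints, and those of Arntl in KO heart 10 (47 reads) and WT heart 3 (86 reads). The footprint ratio of Dbp to Arntl in these hearts rests on the same reads.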

Other observations

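Other transcripts of the loop, named after their values were seen, had the same hearts apart. Npas2, which encodes a stand-in for CLOCK, had 219, 64.3, 49.8, 55.5 and 70.2 normalized RNA reads in KO hearts 6 to 10, against 276, 224, 130 and 63.6 in WT hearts 1 to 4. Its highest 3 hearts were KO heart 6, WT heart 1 and WT heart 2, as for Arntl. Ciart, which encodes a repressor of CLOCK and BMAL1, had 36.9, 435, 323, 493 and 440 in KO hearts, against 64.0, 40.8, 282 and 235 in WT hearts. Its lowest 3 hearts were those same 3, as for Dbp. Neither passed the threshold in RNA between genotypes, at -0.95 for Npas2 (limma adjusted p = 0.114) and 1.16 for Ciart (limma adjusted p = 0.237) on the log2 scale.

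Bhlhe41 efficiency was 3.03 to 4.98 in KO hearts and 1.69 to 2.11 in WT hearts, with no overlap, and its log2 difference of 1.01 did not pass in the fit without a term for the heart (limma adjusted p = 0.205). Hlf efficiency was 1.04 to 1.51 in KO hearts and 0.618 to 0.847 in WT hearts, also with no overlap. Its log2 difference of 0.71 did not pass in the same fit (limma adjusted p = 0.400). Among the other clock regulators Nono, Tipin, Sfpq and Bhlhe40 did not overlap in efficiency either, all higher in KO hearts. Over all genes 18.3% did not overlap, 9.56% being higher in KO hearts.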
